A study of Drosophila melanogaster with 2 samples.

Results

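The intergenic peaks of Max-GFP are the 537 of 4712 peaks (11.4%, 95% Wilson interval 10.5 to 12.3) whose summit lay more than 500 bp from every protein-coding transcript start and outside every protein-coding gene. They were chosen by position alone, from the dm6 peaks of the pooled replicates that met the authors' IDR threshold (irreproducible discovery rate, an estimate of the share of peaks that do not recur between ranked lists), set against Ensembl release 115. Of the other peaks, 1320 (28.0%) had their summit inside a coding gene away from its starts and 2855 (60.6%) lay at promoters, within 500 bp of a coding start. Intergenic refers to coding genes only: 78 of the 537 (14.5%) had the start of an annotated noncoding gene within 500 bp, 73 (13.6%) had their summit inside a noncoding gene, and 421 (78.4%) had neither.

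Binding was mapped by ChIP-seq in whole Drosophila melanogaster embryos of both sexes, aged 0 to 24 h, from 1 transgenic line that stably makes Max with GFP fused to its C terminus. The immunoprecipitation is described as anti-GFP, although the antibody field of the labels reads Max, and the sheared DNA is given as 200 to 800 bp. The only group held 2 biological replicates, numbered 2 and 3, with 1 library each, so the comparisons are between kinds of site and between replicates. No read counts are in the lists, which leaves the depth unknown, and a score, which is the authors' own, ranks peaks only within its own list. A peak is a site in pooled chromatin and not a replicate, and intervals over peaks cover counting error only. Whole embryos mix all tissues and stages, and binding in a few cells cannot be told apart from weaker binding in many.

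Max, a leucine zipper protein of the basic helix-loop-helix family, pairs with Myc, which drives growth and ribosome production, or with the repressor Mnt. These pairs recognise the E-box CACGTG, a palindrome, and in flies are best known at promoters. Promoters of broadly expressed fly genes often carry other short elements, such as the DNA replication-related element (DRE) TATCGATA, bound by DREF, and the Ohler 1 element GGTCACAC, bound by M1BP. Sites between genes can be starts of noncoding RNAs, enhancers, or the ends of neighbouring genes.

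The sequences below are the reference bases within 50 bp of the summit, on the plus strand of the dm6 (Release 6) genome, 5′ to 3′. The first set shows 4 of the 17 intergenic peaks with CACGTG, in capitals, to show the E-box near starts of noncoding genes and elsewhere between genes. The second of these lies at the start of Uhg3 and the last near the start of Uhg8, both noncoding hosts of small nucleolar RNAs (snoRNAs), which guide chemical modification of ribosomal RNA. The Kr-h2/Kr-h1 summit is inside lncRNA:CR9162 and 644 bp from the nearest noncoding start. The Msr-110/l(3)psg2 summit is 516 bp from the nearest coding start.
Kr-h2/Kr-h1 gap, chr2L:6079070-6079170: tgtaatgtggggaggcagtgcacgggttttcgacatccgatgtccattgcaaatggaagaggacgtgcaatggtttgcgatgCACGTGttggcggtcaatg
Uhg3 start, chr2L:20647491-20647591: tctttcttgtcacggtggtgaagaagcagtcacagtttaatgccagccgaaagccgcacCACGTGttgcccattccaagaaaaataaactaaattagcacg
Msr-110/l(3)psg2 gap, chr3L:5577814-5577914: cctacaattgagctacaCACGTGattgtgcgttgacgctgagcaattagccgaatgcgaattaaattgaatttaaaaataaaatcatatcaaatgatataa
Uhg8, chr3L:20453416-20453516: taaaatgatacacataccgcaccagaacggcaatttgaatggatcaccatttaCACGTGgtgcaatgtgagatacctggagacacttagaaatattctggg
The second set shows both intergenic peaks that held the DRE and all 3 that held Ohler 1, with the element in capitals on whichever strand it lay, because these promoter elements were rare between genes. The slp1/slp2 window holds Ohler 1 in 2 copies.
DRE, CG1958/CG1677 gap, chrX:7277152-7277252: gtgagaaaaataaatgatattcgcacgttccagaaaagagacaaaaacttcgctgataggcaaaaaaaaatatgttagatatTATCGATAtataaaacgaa
DRE, osp/CG15282 gap, chr2L:14701626-14701726: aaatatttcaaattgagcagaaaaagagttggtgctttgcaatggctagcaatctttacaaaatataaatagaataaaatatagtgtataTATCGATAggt
Ohler 1, slp1/slp2 gap, chr2L:3832486-3832586: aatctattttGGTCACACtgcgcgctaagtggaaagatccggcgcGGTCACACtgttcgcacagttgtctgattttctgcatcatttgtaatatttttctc
Ohler 1, hng3/CG13898 gap, chr3L:775090-775190: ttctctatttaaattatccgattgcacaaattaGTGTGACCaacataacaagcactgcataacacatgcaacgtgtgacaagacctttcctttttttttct
Ohler 1, CG17472/CG31680 gap, chr2L:20638602-20638702: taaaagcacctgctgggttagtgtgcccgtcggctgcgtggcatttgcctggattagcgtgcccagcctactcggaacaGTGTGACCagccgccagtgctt
The third set shows the 4 highest-scoring intergenic peaks, with TATAAA in capitals where it occurred, which was in 1 of them. None of these 4 windows held CACGTG, the DRE or Ohler 1.
Sol1/Cyp9f2 gap, chr3R:12403083-12403183: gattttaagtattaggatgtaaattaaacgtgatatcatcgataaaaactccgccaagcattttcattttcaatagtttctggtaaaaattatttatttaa
CG4004/Paics gap, first peak, chrX:12751256-12751356: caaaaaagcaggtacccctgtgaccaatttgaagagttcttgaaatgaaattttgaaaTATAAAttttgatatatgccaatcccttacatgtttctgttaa
CG4004/Paics gap, second peak, chrX:12752331-12752431: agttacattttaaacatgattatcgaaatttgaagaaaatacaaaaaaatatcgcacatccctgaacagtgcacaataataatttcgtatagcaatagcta
RFeSP/chinmo gap, chr2L:1638722-1638822: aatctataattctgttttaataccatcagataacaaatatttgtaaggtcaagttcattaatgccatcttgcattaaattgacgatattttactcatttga

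The peak with the highest score, 1097.3, had its summit at chr3R:12403133 in the 437 bp between the 3′ ends of the convergent genes Sol1 and Cyp9f2, a cytochrome P450 gene, and ranked 8 in replicate 2 and 11 in replicate 3. It was rank 9 of all 4712 peaks. The next, at 938.4 and 749.1, were at chrX:12751306 and chrX:12752381, between CG4004 and Paics, a purine synthesis gene, inside the noncoding genes lncRNA:Vinr and lncRNA:CR44619. They ranked 13 and 43 in replicate 2, and 17 and 29 in replicate 3. The fourth, with a score of 741.3 at chr2L:1638772, was 12486 bp from chinmo, which encodes a BTB zinc finger factor of neuronal temporal identity. The fifth, with 735.4 at chr3R:16222497, was 3154 bp from tara, a gene of the trithorax group.

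Of the 10 highest, 3 lay in gaps bordered by Psc or Su(z)2, Polycomb group genes whose products are part of a repressive chromatin complex. These peaks, at chr2R:13035335, chr2R:12985224 and chr2R:12958243, had scores of 681.9, 659.9 and 617.3. The first was 27424 bp from Su(z)2 and 9360 bp from CG13323 on its other side, the second 4230 bp from Psc and 8673 bp from CG33798, and the third 7754 bp from Psc and 2531 bp from CG13321. They ranked 55, 38 and 64 in replicate 2 and 52, 116 and 82 in replicate 3, so all were near the top of each list. The summit at chr2R:12985224 was 143 bp from the start of lncRNA:CR44339 and had the lowest G+C content of the 10, 15.8%. The ninth by score was at chr2R:22802925, between blw and CycB, the mitotic cyclin B gene, with a score of 636.1 and ranks 78 and 57. Of these 10 peaks, 2 had a noncoding start within 500 bp.

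As a class the intergenic peaks scored lower than promoter peaks and close to those inside genes. Their median score was 126.6 (quartiles 102.0 and 177.3), against 129.2 in genes and 142.7 at promoters. Above the median of the whole list, which by construction splits it at 50%, were 234 intergenic peaks (43.6%, 39.4 to 47.8). The share was 44.7% in genes, a difference of -1.12 percentage points (95% Newcombe interval -6.06 to 3.87), and 53.7% at promoters, a difference of -10.1 points (-14.6 to -5.48). The 942 highest peaks held 73 intergenic peaks (13.6% of the class), against 22.9% of promoter peaks (difference -9.35 points, -12.4 to -5.85). The median peak width was 436 bp in each class, and both quartiles were also 436 bp in intergenic peaks and in genes. The summit lay at the middle of the interval in 77.1% of intergenic peaks, 78.7% in genes and 75.1% at promoters. Width is therefore not read as the breadth of binding.

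Down the ranked list of the pooled replicates the share of intergenic summits was larger in every set of ranks below the first. It was 7.75% (6.21 to 9.63) in ranks 1 to 942, 14.1% (12.0 to 16.5) in ranks 3771 to 4712, the lowest that passed the IDR threshold, and 20.9% (19.8 to 22.1) in ranks 25001 to 30000. All of these lay below the 30.0% of the 6 chromosome arms that meet the same rule, called the eligible bases here. Over the same ranks the promoter share was 69.5% at the top, 54.0% in ranks 3771 to 4712 and 17.7% at the bottom.

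**Figure D1:**
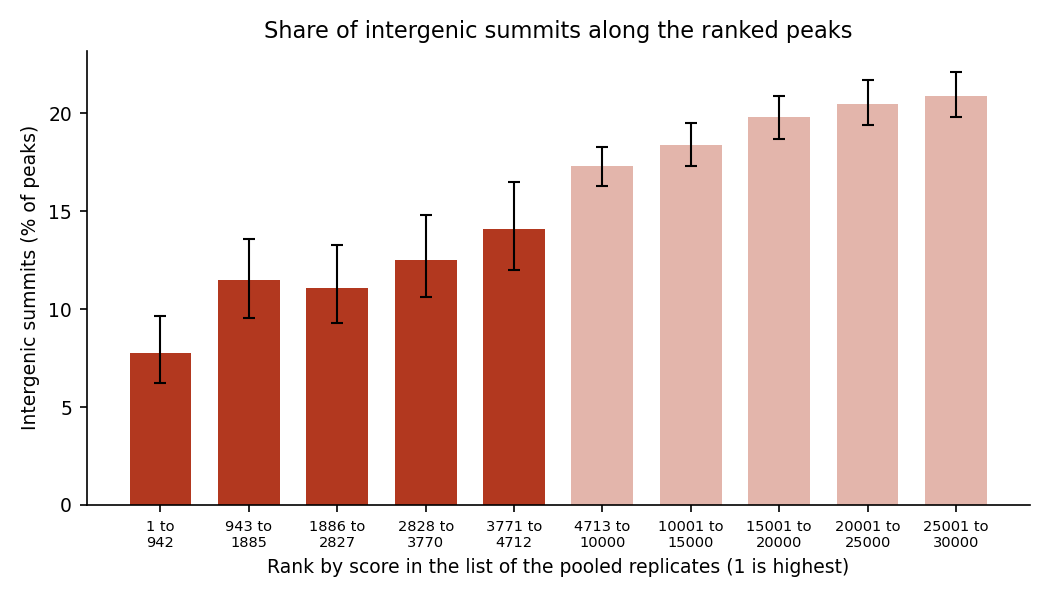
Share of peaks with an intergenic summit (y axis, percent) in successive sets of ranks of the pooled list (x axis, highest scores on the left); dark bars are ranks that passed the IDR threshold, pale bars those that did not, and error bars are 95% Wilson intervals. The share is 7.75% in the first set and 20.9% in the last.

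Most intergenic peaks recurred in both replicates, as did peaks of the other classes. The IDR threshold rests on agreement between ranked lists, and the peaks come from the pooled replicates, so recurrence was favoured by how the list was made. Matched to the nearest overlapping peak, 533 of 537 (99.3%) were found in both replicate lists of 30000 peaks, against 99.4% in genes and 99.6% at promoters. Of the intergenic peaks, 3 had no match in replicate 2 and 1 had none in replicate 3. Among the 4712 highest peaks of each replicate were 362 (67.4%, 63.3 to 71.2), against 71.8% of all peaks. The share was 71.3% in genes (difference -3.88 points, -8.59 to 0.696) and 72.8% at promoters (-5.41 points, -9.79 to -1.23). In replicate 2 alone the shares were 83.6% intergenic and 88.1% promoter, and in replicate 3 alone 82.5% intergenic and 82.6% promoter. The scores of the 533 matched peaks in the 2 replicates had a Spearman rho of 0.562, given as a description since all came from 1 line and were chosen from the pooled data. The same figure was 0.612 in genes and 0.664 at promoters.

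**Figure D2:**
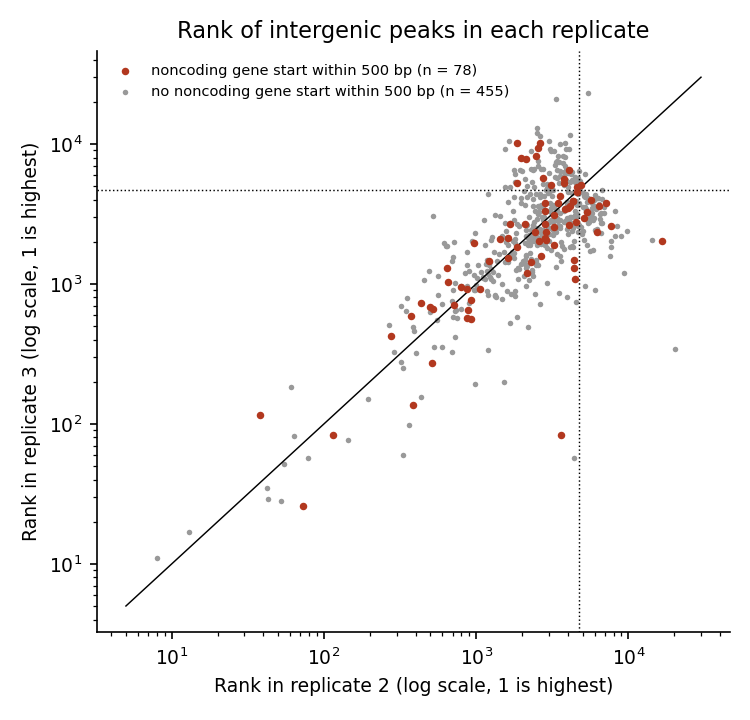
Rank of each matched intergenic peak in replicate 2 (x axis) and replicate 3 (y axis), both log scales with 1 the highest; the solid line marks equal ranks and the dotted lines rank 4712. Red points are the 78 peaks with a noncoding gene start within 500 bp, grey points the other 455; the strongest peaks lie near the line, and the spread is wider around rank 4712.

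The median ratio between a peak's ranks in the 2 replicates was 1.51, and 18 of the 533 differed by more than 5 times. The 3 largest ratios, at chr2R:22803125, chr3R:9533536 and chr2L:14024283, rest on matching: each summit shares its replicate 3 peak, ranked 57, 344 and 83, with another summit of the list, while in replicate 2 they ranked 4388, 20154 and 3623. Such sharing touched 11 members (2.05%), all in replicate 3, and without them 353 of 526 (67.1%) were among the highest peaks of both replicates. Another ratio over 5, of 6.65 at chr3R:13800716, also rests on a shared match, at rank 6049 in replicate 2 and 910 in replicate 3. The other 14 of the 18 were from 5.12 to 8.20. The largest of these was at the snRNA gene U5:63BC, at rank 16565 in replicate 2 and 2021 in replicate 3. In the other direction, chrX:3476215, between CG12206 and CG10804, ranked 3322 in replicate 2 and 21057 in replicate 3, and chr3R:26018006, in the Enhancer of split complex of Notch target genes, ranked 1557 in replicate 2 and 9136 in replicate 3.

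Intergenic peaks were concentrated towards coding starts, beyond the 500 bp excluded by the rule. The median distance from the nearest coding start was 3779 bp, against 8541 bp for the eligible bases. Between 501 and 1000 bp lay 73 peaks (13.6%, 11.0 to 16.8), where 5.65% of the eligible bases lie, a density of 32.2 per Mb. Between 2001 and 5000 bp lay 155 peaks (28.9%), with 20.3% of the bases and 19.0 per Mb. Beyond 20000 bp lay 26 (4.84%, 3.33 to 7.00), with 27.5% of the bases and 2.35 per Mb. Score varied less: the median was 137.2 in the nearest of these sets and 114.6 in the farthest. At the edge of the rule, the 26 members 501 to 600 bp from a start had a median score of 142.9, and the 46 promoter peaks outside genes at 401 to 500 bp had 125.9. Transposons cover 10.5% of the eligible bases. How many of these bases reads can be mapped to was not measured, near coding starts or far from them.

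**Figure D3:**
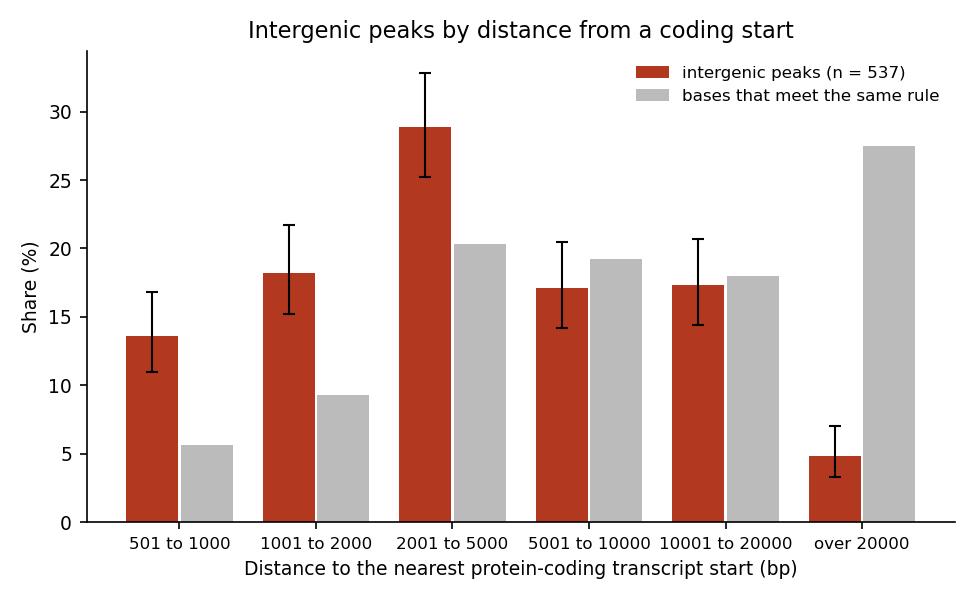
Share of the 537 intergenic peaks (red, with 95% Wilson intervals) and of all bases that meet the same rule (grey) by distance to the nearest coding transcript start (x axis, bp; y axis, percent). Peaks exceed their share of bases up to 5000 bp, and fall short of it beyond 20000 bp, where 4.84% of peaks and 27.5% of bases lie.

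Peaks were found in gaps of every orientation. Between divergent genes, whose starts face the gap, lay 177 (33.0%, 29.1 to 37.0), against 23.7% of the eligible bases. Between tandem genes lay 250 (46.6%, with 49.8% of the bases), and between convergent genes 110 (20.5%, with 21.8%). By arm the density was 10.3 per eligible Mb on X, 17.2 on 2L, 11.2 on 2R, 15.6 on 3L, 11.7 on 3R and 16.8 on chromosome 4, where 5 peaks give an interval of 5.45 to 39.2. The peaks farthest from any coding gene lay on 3L. The summit at chr3L:10344310 was 68508 bp from CG12362, and the one at chr3L:18348851, with a score of 193.2, was 44434 bp from grim and 48684 bp from rpr, which encode activators of apoptosis.

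Of 5757 gaps between coding genes with eligible bases, 359 held an intergenic peak and 262 of these held 1. The RFeSP/chinmo gap held 7 peaks, with scores from 112.8 to 741.3. The 3 highest, with 741.3, 339.1 and 311.4, were at ranks 42, 404 and 391 in replicate 2 and 35, 321 and 463 in replicate 3.

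Counting summits within 5 kb of the next as a run, 358 peaks stood alone and 179 (33.3%) were in runs, while 118 (22.0%) had a peak of another class within 5 kb. The runs of 5 with the highest peaks lay at CG4004/Paics on X, over 5926 bp and with scores from 90.7 to 938.4, and at NimC3/hll on 2L, over 3320 bp and with scores from 96.4 to 550.3. A run counts summits, not separate regions. At NimC3/hll the intervals of chr2L:14024070 and chr2L:14024283 overlap, as do those of chr2L:14022237 and chr2L:14022437. Another run of 5 lay on 2L between Hacd1 and Wdr81, on both sides of the coding gene Rh5, with a highest score of 300.3. A run of 5 at CG44362/CG7560 on 3L reached 291.6. The mtSSB/tara gap held 5 peaks, 2 of them strong in each replicate, at chr3R:16222497 with ranks 52 and 28 and at chr3R:16224523 with ranks 329 and 249.

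Starts of noncoding genes lay at intergenic peaks more often than at peaks in genes or at promoters. Of the 537, 78 (14.5%, 11.8 to 17.8) had such a start within 500 bp, against 4.97% of all peaks and 4.10% of the eligible bases. The share was 2.58% in genes (difference 11.9 points, 9.04 to 15.3) and 4.27% at promoters (10.3 points, 7.41 to 13.6), and how densely noncoding genes are annotated around these classes was not measured. By type, 67 of the 78 were near the start of a gene annotated as ncRNA, 8 near a snoRNA, 4 near a tRNA, 3 near a small nuclear RNA (snRNA) and 1 near a pseudogene, and a peak can count for more than 1 type. Their median score was 131.9, against 125.8 for the 459 without a noncoding start.

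The Uhg genes are the hosts from whose introns snoRNAs are cut. Of 7 annotated, 5 had an intergenic peak within 500 bp of their start: Uhg4, Uhg5, Uhg1, Uhg3 and Uhg8. Only 3 of the 7 starts, those of Uhg1, Uhg3 and Uhg4, themselves met the positional rule of the class, and all 3 had a peak. At the other starts a peak can fall in another class, so 5 of 7 is not the share of Uhg genes with a peak. The summits were 19 bp from the start of Uhg4, 27 bp from Uhg1, 8 bp from Uhg3 and 173 bp from Uhg8. The scores were 402.3 at Uhg4, 298.0 at Uhg5, 259.8 at Uhg1, 249.8 at Uhg3 and 128.4 at Uhg8. In replicate 2 these peaks ranked 383, 521, 655, 927 and 1843, and in replicate 3 they ranked 136, 664, 1025, 767 and 5294. Only the Uhg8 peak fell outside the 4712 highest of a replicate, and 4 of the 5, all but Uhg4, held CACGTG.

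Among long noncoding RNAs, 48 of the 1263 whose start met the same positional rule carried a peak within 500 bp (3.80%). The strongest was at lncRNA:CR31044, which spans mir-279 and mir-996, microRNAs that limit the formation of a class of sensory neurons. Its summit, at chr3R:29214442, was 120 bp upstream of the start, with a score of 717.3 and ranks 73 and 26. The next was the peak 143 bp from lncRNA:CR44339 described above, with a score of 659.9. The third was at chr2L:14024070, 29 bp from the start of lncRNA:CR31840, with a score of 550.3 and ranks 114 and 83. Of 86 microRNA hairpins that met the rule, 3 had a peak within 500 bp, namely mir-ban (bantam, which promotes growth and represses cell death), mir-275 and mir-34, with scores of 104.0, 100.3 and 97.9, all below the list median of 136.4.

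Peaks at tRNA and snRNA genes were few. Of the 141 tRNA genes that met the rule, 5 had a peak within 500 bp (3.55%, 1.52 to 8.03). The highest, with a score of 153.8 at chr2R:23072373, was 208 bp from tRNA:Ser-TGA-2-1 and 536 bp from Fib, the fibrillarin gene of the nucleolus, and it held CACGTG. Of 32 annotated snRNA genes, 13 met the rule, and most of these encode RNAs of the spliceosome. Of the 13, 2 had a peak within 500 bp, U1:95Ca with a score of 127.9 and U5:63BC with 87.5. A further member lay 185 bp from the start of U2:34ABb with 146.3. The snRNA peaks were singled out after their values were seen.

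The summit base was soft-masked, as repeat or low-complexity sequence, in 26.1% of intergenic peaks and in 26.1% of the eligible bases. Over 50% of the summit window was masked in 13.2%, against 11.5% of all peaks. A transposon annotation lay under 6 intergenic peaks (1.12%, 0.513 to 2.42), against 0.637% of all peaks, and at the summit of 1 (0.186%), where transposons cover 10.5% of the eligible bases. How unmappable sequence was treated is not given in the sources used here.

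Intergenic summits lay in A/T-rich sequence. The mean G+C content within 50 bp was 33.2% ± 8.7 (SD over 537 sites), against 41.9% ± 10.2 and 41.9% ± 9.7 in windows of the same width centred 500 bp to the left and right, and 40.5% over the eligible bases. In 50 bp steps the mean was 44.7% at 250 bp to the left, 32.9% at the summit and 43.7% at 250 bp to the right. The dip was also present in genes, with 31.9% at the summit, and at promoters, with 35.4%.

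**Figure D4:**
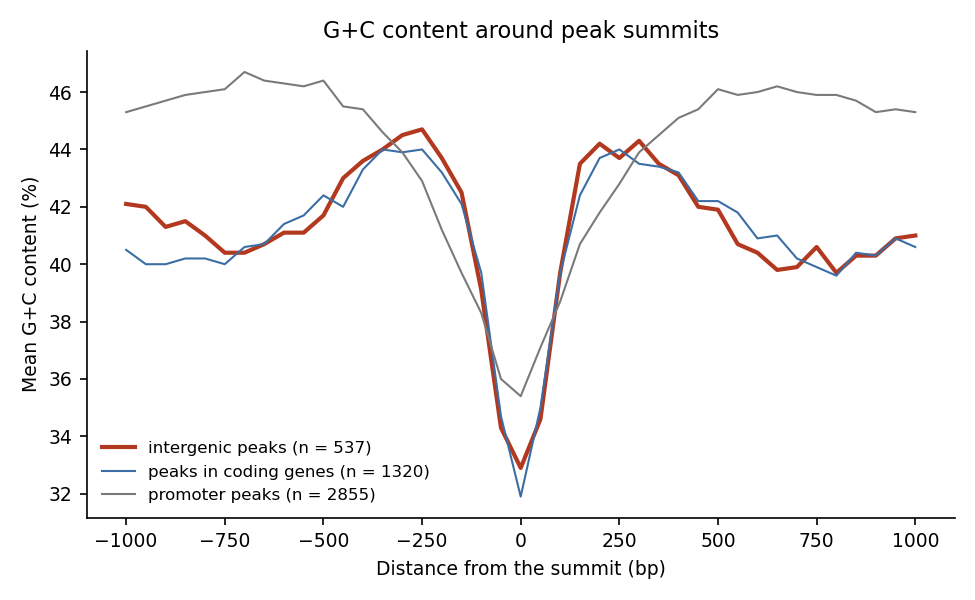
Mean G+C content (y axis, percent) of windows of about 50 bp by distance from the summit (x axis, bp) for intergenic peaks (red), peaks in coding genes (blue) and promoter peaks (grey). All 3 classes dip at the summit, to 32.9% in intergenic peaks, 31.9% in genes and 35.4% at promoters; the y axis does not start at 0.

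The canonical E-box CACGTG was found within 50 bp of 17 intergenic summits (3.17%, 1.99 to 5.01), against 3.48% of all peaks. In the flanking windows it was found in 6 on the left and 11 on the right, a mean of 1.58%, so the summit held it 2.00 times as often. The ratio was 1.20 in the peaks of replicate 2 alone, that is without replicate 3, and 1.65 in those of replicate 3 alone. This did not pass the exact two-sided McNemar test (adjusted p = 0.750, Benjamini-Hochberg over 14 motifs, the larger p of the 2 flanks). The share was 1.52% in genes (difference 1.65 points, 0.217 to 3.57) and 4.45% at promoters (-1.28 points, -2.72 to 0.690). Among the 24 palindromic hexamers with 4 G or C bases, CACGTG had the rank 3 by ratio of summit to flank in intergenic peaks of the pooled list, tied with GTGCAC and below GCTAGC at 2.67.

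The share of peaks with CACGTG varied within the intergenic class. CACGTG was in 7 of the 78 peaks with a noncoding start within 500 bp (8.97%) and in 10 of the other 459 (2.18%). It was in 5 of the 73 peaks at 501 to 1000 bp from a coding start (6.85%) and in 2 of the 211 beyond 5000 bp (0.948%). Within 500 bp past the 3′ end of a coding gene it was in 7 of 69 (10.1%). These splits overlap and have no test. The strongest E-box peaks were at the snoRNA and host gene Uhg5 with 298.0, inside lncRNA:CR43650 with 289.4, and at Uhg1 with 259.8. Next were a peak inside lncRNA:CR9162, 3483 bp from Kr-h1, a zinc finger gene of the juvenile hormone response, with 255.5, and Uhg3 with 249.8. The weaker ones included summits at RpLP0/Sfp79B with 99.6, at zfh1/wts, beside a kinase gene of the Hippo pathway, with 96.6, at sif/DnaJ-1 with 91.5 and, 112 bp from TFAM, the mitochondrial DNA packaging gene, with 89.0.

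The promoter elements were rare between genes, and also in peaks inside genes. The DRE TATCGATA was in 2 intergenic windows (0.372%, 0.102 to 1.35), against 3.52% of all peaks and 5.57% at promoters (difference -5.20 points, -6.14 to -3.95). In genes it was in 0.379% (difference -0.00635 points, -0.579 to 0.993). Ohler 1 GGTCACAC was in 3 intergenic windows (0.559%, 0.190 to 1.63), against 2.19% of all peaks and 3.47% at promoters (-2.91 points, -3.73 to -1.68). In genes it was in 0.0758% (0.483 points, -0.0268 to 1.56). Against their flanks neither passed (exact McNemar adjusted p = 1.00 for the DRE and 0.972 for Ohler 1). The DRE peaks had scores of 117.3 and 116.5, below the list median. The strongest Ohler 1 peak, at chr2L:3832536, between slp1 and slp2, forkhead genes of segmentation, had a score of 388.8 and ranks 433 and 156. Ohler 7 CATCNCTA was in 0.745%, against 2.36% of all peaks, 0.606% in genes and 3.47% at promoters (-2.72 points, -3.59 to -1.42). Ohler 6 GGTATTTT was in 0.931%, against 1.70% of all peaks, 1.36% in genes and 2.00% at promoters (-1.07 points, -1.85 to 0.245). Against the flanks their adjusted p was 1.00 and 0.750 (exact McNemar test).

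TATAAA, the letters of the TATA element, was the only one of the 14 motifs that was more frequent at intergenic summits than in both flanks by the test. It was in 124 windows (23.1%, 19.7 to 26.8), against 12.4% in the flanks (ratio 1.86, exact McNemar adjusted p = 2.61e-04) and 23.2% of all peaks. The share was 25.4% in genes (difference -2.29 points, -6.43 to 2.10) and 22.2% at promoters (0.885 points, -2.83 to 4.92). The call was lost in the peaks of replicate 3 alone, that is without replicate 2 (ratio 1.56, exact McNemar adjusted p = 0.130), and among the 234 members above the median score of the list (1.49, adjusted p = 0.635). The letters are all A or T, and G+C was 33.2% at the summit and 41.9% in the flanks. The 8 palindromic hexamers made of A and T alone had ratios from 1.33 to 2.18 in the same windows, a range that includes that of TATAAA.

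Of the E-box variants, CAGCTG was in 1.30% of intergenic windows, against 4.41% of all peaks, 3.03% in genes (difference -1.73 points, -2.99 to -0.148) and 5.64% at promoters (-4.34 points, -5.46 to -2.76). CATGTG was in 3.91%, against 4.16% of all peaks, CATATG in 3.35%, against 3.44%, and CACGCG in 0.745%, against 2.23%. The AP-1 motif TGANTCA was in 3.17%, against 2.31% of all peaks, 3.26% in genes and 1.72% at promoters (1.45 points, 0.150 to 3.34). The GAGA element GAGAGAG was in 0.931%, against 1.25% of all peaks. The Zelda motif CAGGTAG was in 0.931%, against 0.531%, and the B box core of tRNA genes GGTTCGA was in 0.559%, against 0.658%. The adjusted p against the flanks was from 0.159 to 1.00 for these 8 (exact McNemar test). All motifs were sought on both strands, N stands for any base, no motif contains another although their matches may overlap, and a match describes letters, not a bound site.

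**Figure D5:**
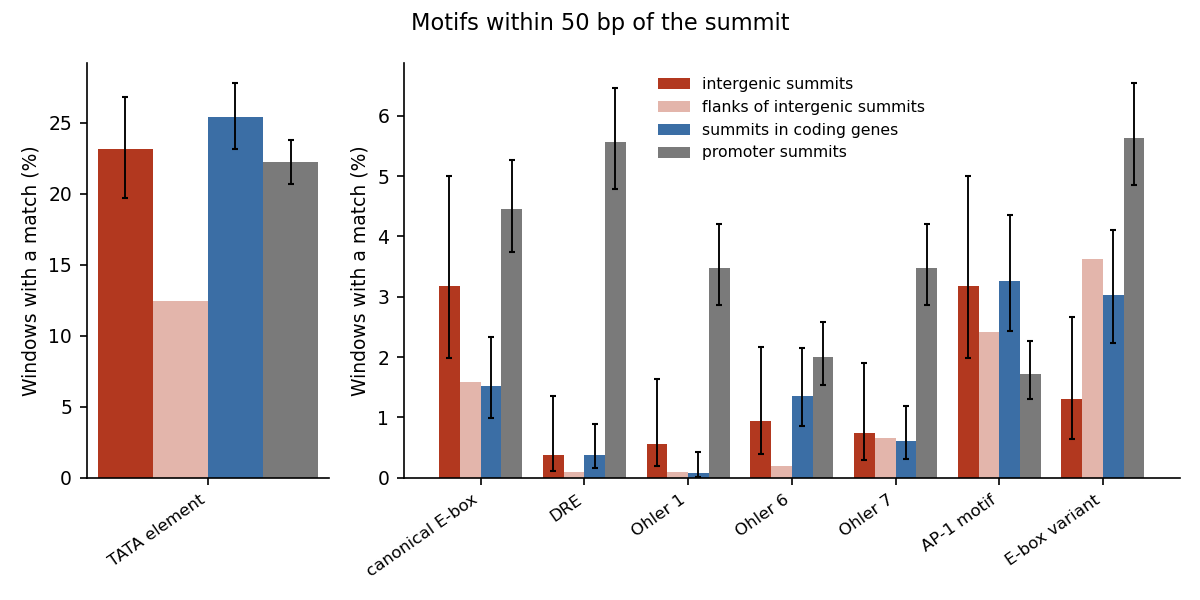
Share of windows within 50 bp of the summit that hold a motif (y axis, percent) in intergenic peaks, the mean of their flanks, peaks in coding genes and promoter peaks; error bars are 95% Wilson intervals, and the TATA element has its own scale. The DRE is at 0.372% in intergenic peaks, 0.379% in genes and 5.57% at promoters. In the same order the canonical E-box is at 3.17%, 1.52% and 4.45%. The variant plotted last is CAGCTG, at 1.30%, 3.03% and 5.64%.

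The coding genes that border each gap were counted on lists of genes, as a description of place, since a peak need not act on a neighbour. Listed names absent from the annotation were left out, from the peaks and from the bases. Such names numbered 1 for Hox and segmentation genes and 1 for signalling genes. They numbered 4 for neural and muscle fate factors and 4 for other basic helix-loop-helix factors. Genes for other basic helix-loop-helix factors bordered 6 intergenic peaks (1.12%, 0.513 to 2.42), where 0.458% of the eligible bases lie. Of these, 3 were in the dnc/Myc gap, upstream of Myc, the partner of Max, at 17727, 12598 and 9303 bp from the gene and with scores of 189.4, 112.8 and 158.3. They ranked 1541, 4915 and 2302 in replicate 2 and 1436, 2572 and 1442 in replicate 3. The other 3 bordered Notch target genes of the Enhancer of split complex, 2 at E(spl)m3-HLH and 1 at E(spl)mbeta-HLH, the last with a score of 237.7.

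For the lists of developmental genes, the interval of each share of peaks included the share of eligible bases. Hox and segmentation genes bordered 11 (2.05%, 1.15 to 3.63, with 1.99% of the bases), led by slp1/slp2 with 388.8, by a summit 8322 bp from the Hox gene abd-A with 283.5, and by a summit 5252 bp from ptc, the Hedgehog receptor gene, with 197.6. Peaks between hry, the segmentation gene hairy, and SrpRbeta, with 185.2 and 114.6, were not in this count. Signalling genes bordered 8 (1.49%, with 1.06%), among them 2 between Wnt4 and wg, which encode Wnt ligands, with 143.3 and 122.5. Neural and muscle fate factors bordered 11 (2.05%, with 1.32%), 3 of them at SoxN, a neural determination gene, with scores from 95.7 to 181.9.

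Genes of ribosomes and translation bordered few. Cytoplasmic ribosomal protein genes bordered 3 (0.559%, 0.190 to 1.63, with 1.53% of the bases), at RpL17, RpS15Aa and RpS23, with scores of 121.7, 109.8 and 107.0. This interval includes the share of bases. Ribosome biogenesis and translation genes bordered 5 (0.931%, 0.398 to 2.16, with 2.54%), 4 of them in the Cyt-c1L/eEF1gamma gap that also holds lncRNA:CR31044, and 1 at Fib. Here the share of bases lay above the interval. Chemosensory receptor and odorant-binding genes bordered 13 (2.42%, 1.42 to 4.10, with 4.04%) and cuticle genes 3 (0.559%, 0.190 to 1.63, with 0.662%). Heat shock and chaperone genes bordered 2 (0.372%, 0.102 to 1.35, with 0.189%). Histone genes bordered 0, where the interval reaches 0.710%, with 0.225% of the bases. For each of these lists, from chemosensory to histone genes, the interval includes the share of bases.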

How the data were processed

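Per the text listings deposited with the samples, the peak lists of each replicate, of the pooled replicates and of the pooled peaks past the IDR threshold were made from immunoprecipitated alignments against a control alignment on dm6 and dm3. The aligner is not given in the sources used here, nor is the peak caller, and the control and the dm3 lists were not analysed here. The lists deposited by the authors give each peak a score on a scale of its own per list, −log10 of a q-value (not used for selection) and a summit offset. No read counts are given, so depth and its precision are unknown.

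Summits were set against Ensembl 115 and the Release 6 genome, whose arm names and lengths fit the lists. Each of the 4712 rows was 1 summit, although 15 repeated an interval. Replicate peaks were matched by an overlap of at least 1 bp, nearest summit first. Shares carry 95% Wilson intervals and their differences Newcombe intervals. Motifs at summits and flanks were compared by the exact McNemar test at a threshold of 0.05. The test was tried on simulated sequences with CACGTG only, so its behaviour for A/T-only motifs such as TATAAA was not simulated. Python 3.11.15, numpy 2.4.6, scipy 1.17.1 and matplotlib 3.10.9 were used.

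The peaks and lists were chosen with earlier results of these data known. Named peaks are the highest by score in the class, by motif and by noncoding start, those farthest from a gene, those with the largest rank ratio between replicates, the largest runs, and the highest of each list of bordering genes. Also named, after their values were seen, were snRNA, Uhg and microRNA peaks, gaps with several peaks, other members of named gaps and weaker E-box peaks. 1 gap between genes, with its run of peaks, is not reported here.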

Additional observations from a re-analysis of the deposited data

How the results depend on the processing

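The intergenic share of 11.4% was 14.9% and 9.85% with promoter windows of 250 and 1000 bp, 12.9% with 1 canonical start per gene, 8.93% with noncoding genes also excluded and 9.93% in the upper part of the list, above its median score, and from 10.9% to 12.2% from the peaks of single replicates. The share among the highest peaks of both replicates, 67.4%, was 54.4% when the overlap had to cover 50% of each peak, 76.1% in that upper part and 67.1% without shared matches, an alternative chosen after seeing the data. A noncoding start was found at 8.75% of peaks within 250 bp and 19.9% within 1000 bp, against 14.5% at 500 bp, and at 13.7% to 15.6% from single replicates. The share of members above the list median was from 43.7% to 43.9% from single replicates.

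The ratio of summit to flank for TATAAA passed in every alternative run except the upper part of the list, above its median score (1.49, exact McNemar adjusted p = 0.635) and the list of replicate 3 alone (1.56, adjusted p = 0.130); from single replicates it was 1.56 to 1.83. That upper part holds 234 of the 537 peaks; for replicate 3 alone the cause was not tested. CACGTG, GGTCACAC and TATCGATA passed in none of theirs; from single replicates their ratios were 1.20 to 1.65, 2.50 to 6.00 and 1.00 to 1.33. For TATCGATA, found at 2 summits, the direction turned with a summit window of 100 bp (0.800) and in that upper part (0, with no match at a summit). GGTCACAC gave no ratio with noncoding genes also excluded. No paired analysis was possible because the series has 1 group.

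Peaks share chromatin and neighbours, so intervals over peaks are counting error. With 2 replicates of 1 line and no read counts, binding at a single site has no test.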
